A study of Saccharomyces cerevisiae with 8 samples.

Results

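TIP41 was overexpressed from a high-copy plasmid in yeast cells lacking mitochondrial DNA (mtDNA), and the transcripts of those ρ0 cells were compared with the transcripts of ρ0 cells carrying the empty vector. Each group had 2 RNA-seq libraries, numbered replicate 0 and replicate 1, out of 8 libraries in 4 groups. All cultures were of the diploid Saccharomyces cerevisiae strain BY4743, which is MATa/α and carries his3Δ1/his3Δ1, leu2Δ0/leu2Δ0 and ura3Δ0/ura3Δ0 together with heterozygous met15Δ0/MET15 and LYS2/lys2Δ0. The ρ0 TIP41 cells carried plasmid M489, which is the 2μ plasmid pRS426 with TIP41 inserted, and the ρ0 vector cells carried pRS426 itself. Both plasmids are selected by URA3 in medium lacking uracil, and TIP41 can thus be transcribed from the plasmid in addition to the 2 chromosomal alleles. The ρ0 state was made in both groups by 24 h of growth in 25 μg/ml ethidium bromide (EtBr). The remaining libraries were from ρ+ cells with pRS426, which received no EtBr, and from ρ0 cells with plasmid b89, which is pRS426 with PDE2. The comparison covered all 7105 genes of the deposited table, of which 5832 had enough fragments to be tested.

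Tip41p binds Tap42p, the protein that holds the PP2A and Sit4p phosphatases under the control of the TORC1 kinase complex, and so takes part in the branch of nutrient signalling that reaches nitrogen, stress and retrograde genes. Loss of mtDNA lowers the membrane potential and the iron-sulfur cluster synthesis of mitochondria, and yeast respond to it through several nuclear regulators. Aft1p and Aft2p switch on the iron regulon when iron-sulfur clusters are short, Pdr1p and Pdr3p switch on drug efflux pumps, and Rtg1p and Rtg3p switch on the first enzymes of the tricarboxylic acid (TCA) cycle. TIP41 was included in the study as a positive control for an altered response to mtDNA loss.

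The libraries held 1389579 to 4884282 fragments in genes, and the compared ones held 3000914 and 1945961 with TIP41, against 2761861 and 2334101 with the vector. The 31 genes of the mtDNA had 0 fragments in all 6 ρ0 libraries, but only 9 and 6 fragments in the ρ+ libraries. The RNA was selected by its poly(A) tail, so this count could not check the ρ0 state. LEU2, deleted in BY4743, had 0 fragments in every library. Of the genes that a MATa/α diploid represses, MFA1 and MFA2 had at most 1 fragment in a library, and FUS3, STE18, HO and STE3 at most 9, 11, 15 and 23. But STE2 had 13 to 58, GPA1 16 to 62, RME1 15 to 64, STE4 31 to 76 and STE5 22 to 82, while AXL1 had 39 to 143 and FAR1 52 to 308. Levels are given as CPM, the fragments of a gene relative to its library's total after TMM scaling, with replicate 0 before replicate 1. Fold changes are log2 values of TIP41 over vector in ρ0 cells with their standard error (SE), from edgeR's quasi-likelihood test in a fit of all 8 libraries, and adjusted p-values are Benjamini-Hochberg values over the 5832 genes. Genes with an adjusted p under 0.05 are said to have risen or fallen. The 2 replicates were made by different experimenters, and another fit takes the replicate number as a block. That fit is named wherever its call differs. For genes that passed only with the block, the log2 fold change and SE printed are those of the fit with the block. Medians of gene lists are from the fit without it. The p-values measure the spread between these cultures, and fewer plasmid-bearing cells or less RNA per cell cannot be told apart in such bulk samples.

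The TIP41 transcript itself had the lowest adjusted p of all genes tested. TIP41 (YPR040W, chrXVI:647305-648375, plus strand of R64) had 759 and 600.3 CPM in the ρ0 TIP41 libraries, against 51.5 and 60.9 CPM in the ρ0 vector libraries (log2 fold change 3.60, SE 0.19, adjusted p = 1.44e-07), a 12.1-fold rise. In the cultures without the TIP41 plasmid its level was low throughout, at 41.2 and 54.7 CPM in ρ+ vector cells and 67.5 and 52.1 CPM in ρ0 PDE2 cells. URA3 (YEL021W, chrV:116167-116970), which encodes the orotidine-5'-phosphate decarboxylase that the plasmid supplies, fell to 5658 and 7211 CPM in the ρ0 TIP41 libraries, against 16950.3 and 15617 CPM in the ρ0 vector libraries (log2 fold change −1.34, SE 0.20, adjusted p = 0.0048). The groups did not overlap for either gene, which held for 41.9% of all genes tested. URA3 stood at 1915 and 2699.6 CPM in ρ0 PDE2 cells and at 13417 and 14590.0 CPM in ρ+ vector cells. All of these URA3 fragments come from plasmids, since the chromosomal gene is deleted, and plasmid copies per cell were not measured. Without ρ0 TIP41 replicate 0 the adjusted p of URA3 was 0.21, while TIP41 passed under all 28 alternative settings.

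Genes next to TIP41 were also higher in the TIP41 libraries. IRC16 (YPR038W, chrXVI:646836-647195), which ends 110 bases before TIP41 starts, rose to 99.6 and 156 CPM with TIP41, against 12.2 and 10.5 CPM with the vector (log2 fold change 3.47, SE 0.25, adjusted p = 4.9e-06). ERV2 (YPR037C, chrXVI:646448-647038, minus strand), which encodes a sulfhydryl oxidase of the endoplasmic reticulum, rose to 88.1 and 84.2 CPM, against 40.0 and 48 CPM (log2 fold change 0.97, SE 0.17, adjusted p = 0.0247). IRC16 and ERV2 overlap by 203 bases on opposite strands. The kit used marks strand, but the counting command named no strand setting, so the reads of the overlapping genes cannot be told apart. YPR039W had 18.8 and 21.8 CPM with TIP41, against 0.72 and 0 CPM with the vector (adjusted p = 0.00151). It had 99 fragments over the TIP41 libraries, against 2 over the vector libraries (rounded sums), a ratio of 52.5 after scaling with an exact 95% interval of 14.2 to 439 that covers counting error only. IRC16, ERV2 and YPR039W share 1 deposited locus with TIP41, chrXVI:646448-648375, in which Cuffdiff divided fragments between 4 genes. SPO24 (YPR036W-A, chrXVI:645950-646153), a sporulation gene before ERV2, went the other way and had 162 and 178 CPM with TIP41, against 344 and 436 CPM with the vector (log2 fold change −1.20, SE 0.18, adjusted p = 0.00979). Of the other genes within 10 kb, TIF5 after TIP41 had 485 and 474 CPM with TIP41, against 501 and 381 CPM with the vector, and VMA13 before SPO24 had 440.1 and 446 CPM, against 431 and 389 CPM. HTS1, ARP7, GLN1, PUF2, RPL43A, THP3, MCM16 and MSF1 did not pass either, with log2 fold changes of −0.37 to 0.36. How far the insert of M489 reaches beyond TIP41 is not given in the sources used here, so plasmid and chromosomal transcripts of these neighbours cannot be told apart. ERV2 did not pass without ρ+ vector replicate 0 (adjusted p = 0.0502) or without either ρ0 TIP41 replicate (0.232 and 0.112 without replicates 0 and 1), and SPO24 did not without either (0.19 and 0.0661). The adjusted p over the alternatives reached 0.531 for ERV2 and 0.19 for SPO24.

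**Figure D1:**
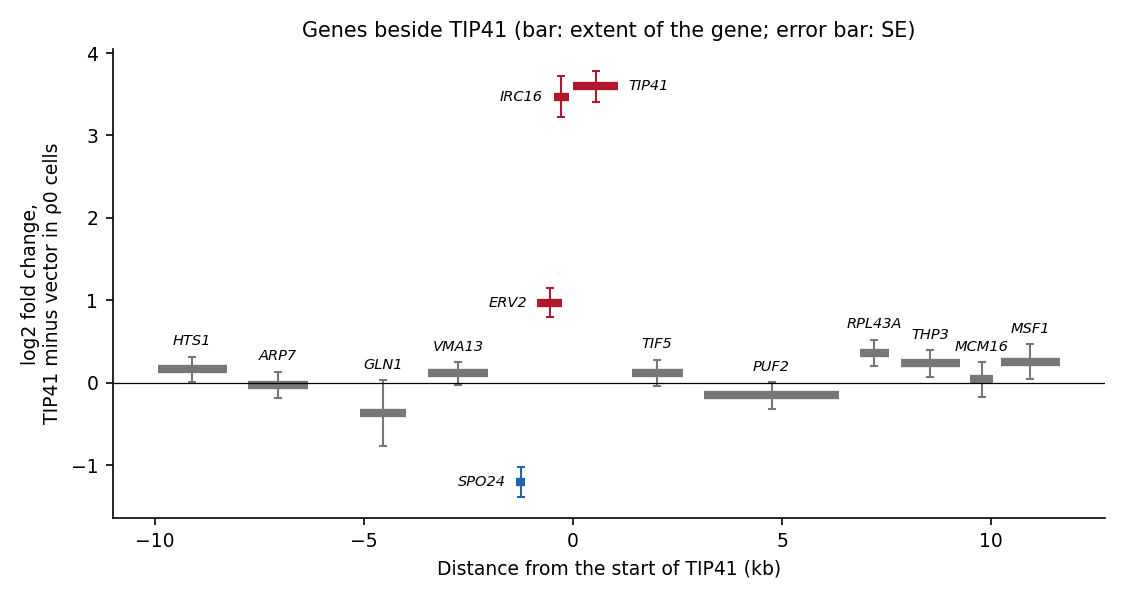
log2 fold change of TIP41 over vector in ρ0 cells (y axis) for genes within 10 kb of TIP41, placed by distance from its start in kb (x axis). Bars span the genes and error bars are the SE. TIP41 at 3.60 and IRC16 at 3.47 stand far above the rest, ERV2 at 0.97 is the other red gene, SPO24 at −1.20 is the only blue, lower gene, and the grey genes did not pass. YPR039W has no matched position and is not drawn.

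Across all 5832 genes, 8 rose (0.137%) and 16 fell (0.274%), 24 in all (0.412%), with 623 genes at an unadjusted p under 0.05. The 24 genes included iron genes (FIT3, ISU1), efflux pumps (PDR5, SNQ2) and IDH1 among the lower ones, and respiratory or mitochondrial genes (COR1, COX13, SOD2) among the higher ones. But the 8 higher genes also held TIP41, IRC16, ERV2 and YPR039W, the 4 genes of the deposited locus of TIP41. The 16 lower ones also held URA3, the marker of the plasmids. Changes above 2-fold were few, 4 higher and 8 lower. The libraries of the 2 groups did not overlap for any of the 24, but this also held for 41.9% of all genes tested (22.9% above and 19.0% below). With the replicate block 48 genes rose (0.823%) and 66 fell (1.13%), 114 in all (1.95%), and these held all 24. Of the 114, 111 moved in the same direction in both replicate numbers. The remaining genes, YPR039W, YLR157C-B and YGR259C, had 0 CPM in a vector library, so that a ratio could not be formed in each replicate. A fit with this block favours genes whose replicates move alike, so the 111 are no separate support. The shares of all genes given here are the background for the counts of list members below. The numbers of genes called depended on single libraries. The fit without the block called 116 genes when ρ0 vector replicate 0 was left out, 12 when ρ0 vector replicate 1 was, 6 and 10 when TIP41 replicates 0 and 1 were, and 12 and 14 when ρ+ vector replicates 0 and 1 were. With the block it called 156 genes when ρ0 vector replicate 0 was left out, 60 when ρ0 vector replicate 1 was, 16 and 20 when TIP41 replicates 0 and 1 were, 178 and 190 when ρ+ vector replicates 0 and 1 were, and 215 and 221 when PDE2 replicates 0 and 1 were. Only TIP41 and IRC16 passed in every one of the 28 alternatives.

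**Figure D2:**
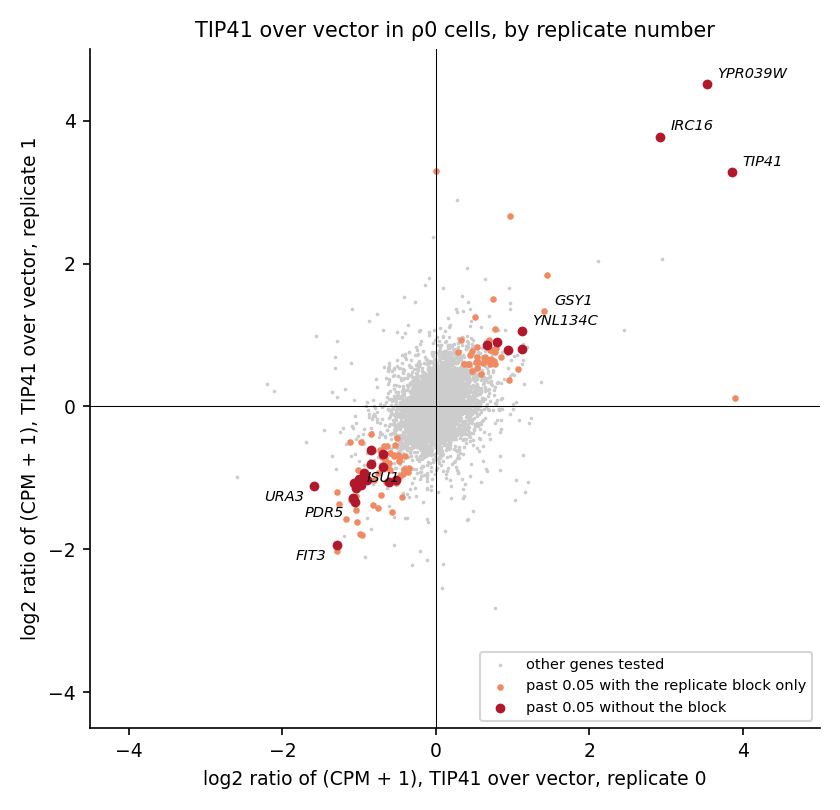
log2 ratio of TIP41 over vector, computed on CPM + 1, in replicate 0 (x axis) and replicate 1 (y axis), with 1 point for each of the 5832 genes tested. Red points passed without the block (24 genes), orange points only with it (90 genes) and grey points in neither. TIP41 and IRC16 lie at the upper right and FIT3, PDR5 and URA3 at the lower left.

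**Figure D3:**
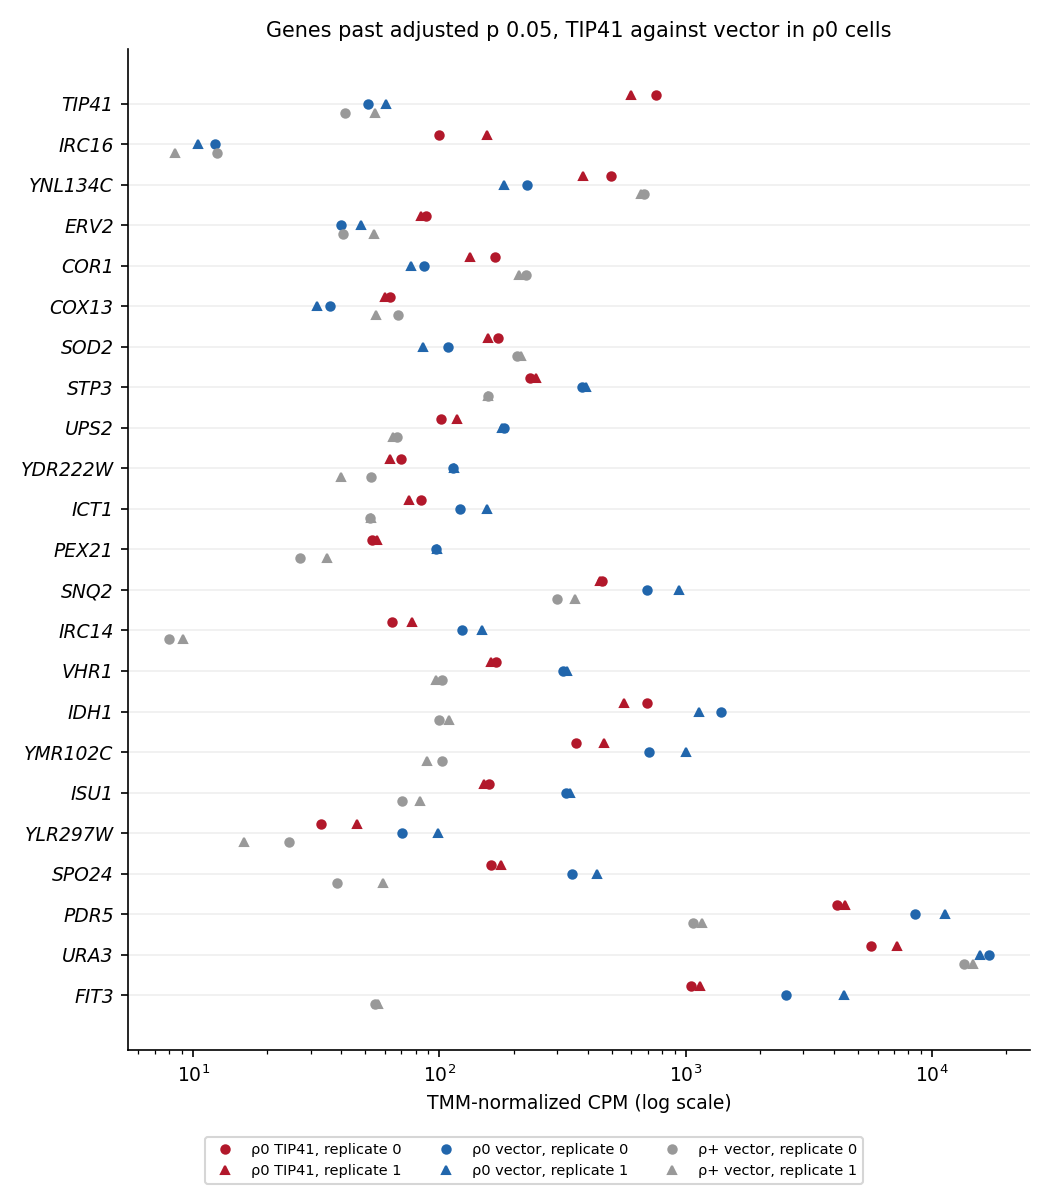
Levels in CPM (x axis, log scale) of the genes that passed without the block, in ρ0 TIP41 (red), ρ0 vector (blue) and ρ+ vector (grey) libraries, with circles for replicate 0 and triangles for replicate 1. YPR039W is left out because of its 0. For every gene drawn both red symbols lie on the same side of both blue ones, as for ISU1 with 159 and 152 CPM with TIP41 and 327 and 337 CPM with the vector.

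Genes of the iron regulon were lower in ρ0 TIP41 cells. Of the 29 members tested, 2 fell, FIT3 and ISU1, against 0.274% of all genes tested. With the block 13 fell, against 1.13% of all genes. In edgeR's test 0 rose in either fit, 0 had an unadjusted p under 0.05 in that direction, and DESeq2 called 4 lower and 0 higher. In a fit of only the 4 compared libraries 1 member fell, or 20 with the block, and both limma tests called 0. The median log2 fold change of the list was −0.50, against 0.01 over all genes, and 27 of its 29 members had a negative value. Without ρ0 vector replicates 0 and 1 that median was −0.80 and −0.26, and without TIP41 replicates 0 and 1 it was −0.33 and −0.83. FIT3 (YOR383C, chrXV:1060441-1061055), a cell wall mannoprotein that retains siderophore iron, had 1045 and 1141 CPM with TIP41, against 2553 and 4387 CPM with the vector (log2 fold change −1.67, SE 0.22, adjusted p = 0.00272). In ρ+ vector cells it had 54.5 and 56.1 CPM, so that both ρ0 groups stood far above ρ+ cells. ISU1 (YPL135W, chrXVI:297553-298050), the scaffold on which mitochondria build iron-sulfur clusters, had 159 and 152 CPM with TIP41, against 327 and 337 CPM with the vector (log2 fold change −1.1, SE 0.13, adjusted p = 0.000846), and 70.5 and 83.4 CPM in ρ+ vector cells. The replicates of ISU1 lay close together in both groups, whereas FIT3 was spread widely between the vector libraries. ISU1 passed without each library in turn. FIT3 lost its call when TIP41 replicate 0 was left out (adjusted p = 0.102), and over the alternatives the adjusted p of FIT3 and ISU1 reached 0.161 and 0.0767.

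Aft1p and Aft2p bind DNA at TGCACCC, read on either strand as TGCACCC or GGGTGCA, and Pdr1p and Pdr3p bind at the palindrome TCCGCGGA. The stretches that hold these letters before the coding starts of 4 iron genes are shown because their transcripts were among the lower ones, with capitals for the matched letters. They were read from the R64 genome of RefSeq, 5′ to 3′ on the strand of the gene. They lie at chrXV:1061218-1061355, minus strand for FIT3, at chrXV:1059185-1059421, plus strand for FIT2, at chrXVI:297158-297322, plus strand for ISU1 and at chrVIII:21210-21246, minus strand for ARN1.
FIT3: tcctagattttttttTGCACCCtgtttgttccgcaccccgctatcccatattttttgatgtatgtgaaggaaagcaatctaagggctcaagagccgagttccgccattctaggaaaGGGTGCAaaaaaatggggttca
FIT2: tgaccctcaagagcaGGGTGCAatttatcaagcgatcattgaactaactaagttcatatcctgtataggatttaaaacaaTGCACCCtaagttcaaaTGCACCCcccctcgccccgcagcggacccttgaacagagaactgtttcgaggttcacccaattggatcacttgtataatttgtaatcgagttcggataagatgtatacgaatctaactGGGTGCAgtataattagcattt
ISU1: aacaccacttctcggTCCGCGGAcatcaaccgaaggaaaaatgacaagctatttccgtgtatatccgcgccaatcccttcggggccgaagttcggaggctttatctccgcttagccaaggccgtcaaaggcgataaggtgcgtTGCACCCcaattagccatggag
ARN1: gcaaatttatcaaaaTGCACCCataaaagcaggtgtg

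FIT3 held 2 TGCACCC matches, 285 and 184 bases before its coding start, and FIT2 held 4 matches, whereas ISU1 held 1 match to TGCACCC and 1 to TCCGCGGA. In the 500 bases before the coding start, TGCACCC occurred in 128 of 5487 genes tested (2.33%), in 21 of the 29 iron genes (72.4%), in 2 of the 14 lower protein-coding genes other than URA3 (14.3%), and in 12 of the 64 that were lower with the block (18.8%). Of the 44 genes higher with the block other than TIP41, 3 held it (6.82%). These shares are not separate from each other. FIT3 and ISU1 were the 2 lower genes with a match, and all of the 12 except VMR1 are members of the iron list. That list is of genes that Aft1p and Aft2p switch on, so its share is no separate support. A match describes the letters in the window and was not tested as a binding site.

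The iron genes that fell only with the block included siderophore carriers, reductases and transporters of stored iron and copper. VHT1, the biotin permease, is a member of the list too and fell only with the block, and its values stand with the biotin genes. Among the proteins that hold or carry siderophores, FIT2, a second cell wall mannoprotein, had 358 and 589 CPM with TIP41, against 771 and 1461 CPM with the vector (log2 fold change −1.22, SE 0.18, adjusted p = 0.000154 with the block and 0.311 without it). ARN2, a siderophore transporter, had 305 and 564 CPM, against 621 and 1195 CPM (log2 fold change −1.06, SE 0.17, adjusted p = 0.000326 with the block and 0.545 without it). Without the block the SE of FIT2 and ARN2 was larger, at 0.33 and 0.49. The transporters ARN1 (−0.93), ENB1 (−0.95) and SIT1 (−0.54) fell with the block too, at adjusted p = 7.03e-05, 7.03e-05 and 0.0372, while none of them passed without it (0.0895, 0.373 and 0.459). In each of these genes replicate 1 was higher than replicate 0 in both groups. The metalloreductases FRE2 (−0.74, adjusted p = 0.0245) and FRE3 (−0.85, adjusted p = 0.00034), the copper carrier CCC2 (−0.67, adjusted p = 0.0055), the vacuolar iron transporter FTH1 (−0.59, adjusted p = 0.0055) and TIS11 (−0.63, adjusted p = 0.00256), whose product degrades mRNAs of iron-using proteins, fell with the block as well. Without the block these 5 genes had adjusted p-values of 0.613, 0.151, 0.429, 0.151 and 0.691. The high-affinity pair FET3 and FTR1, an oxidase and its permease, did not pass in either fit, with 1108 and 1342 CPM for FET3 with TIP41, against 1461 and 1842 CPM with the vector (log2 fold change −0.43), and 617 and 611 CPM for FTR1, against 929.9 and 801 CPM (−0.50). FIT1, the third member of its family, had 31.3 and 68.6 CPM with TIP41, against 56.9 and 228 CPM with the vector, and its groups overlapped. ISU2, the paralogue of ISU1, stood at 45.2 and 40.5 CPM with TIP41, against 43.2 and 44.8 CPM with the vector (log2 fold change −0.03). Of the 17 tested genes of iron-sulfur cluster assembly, ISU1 alone fell, in both fits, and the median of the list was 0.01. With the block, the number of iron genes lower was 14 when vector replicate 0 was left out, 8 when vector replicate 1 was, and 2 and 4 when TIP41 replicates 0 and 1 were. Over the 28 alternatives the adjusted p of the 11 genes called only with the block ran from 1.15e-11 to 0.999.

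Targets of Pdr1p and Pdr3p were lower as well. Of the 20 tested, 4 fell (PDR5, YMR102C, SNQ2 and ICT1), against 0.274% of all genes tested. With the block 11 fell, against 1.13% of all genes. The median log2 fold change was −0.67 (−0.37 without ρ0 vector replicate 1). Of the 20 targets, 16 had a negative log2 fold change and 4 a positive one, the highest at 0.29. In 1 target both TIP41 libraries lay above both vector libraries, against 22.9% of all genes tested. In edgeR's test 0 rose in either fit, 12 were lower at an unadjusted p under 0.05 and 0 higher, and DESeq2 called 6 lower and 0 higher. Of all 5832 genes, 623 had such an unadjusted p in either direction. In a fit of only the 4 compared libraries 0 targets fell, or 12 with the block, and both limma tests called 0. PDR5 (YOR153W, chrXV:619840-624375), the main drug efflux pump of the plasma membrane, had 4106 and 4438 CPM with TIP41, against 8533 and 11258 CPM with the vector (log2 fold change −1.21, SE 0.18, adjusted p = 0.00462), and 1073 and 1163 CPM in ρ+ vector cells. SNQ2 (YDR011W, chrIV:465919-470424), another efflux pump, had 455 and 449 CPM with TIP41, against 697 and 933 CPM with the vector (log2 fold change −0.85, SE 0.17, adjusted p = 0.0371). ICT1 (YLR099C, chrXII:339744-340928), a lysophosphatidic acid acyltransferase, had 83.8 and 75.4 CPM, against 121 and 156 CPM (log2 fold change −0.79, SE 0.15, adjusted p = 0.0275), and YMR102C (YMR102C, chrXIII:469848-472352), of unknown function, had 358 and 464 CPM, against 707 and 999 CPM (log2 fold change −1.06, SE 0.19, adjusted p = 0.0275). In all 4 both TIP41 libraries lay below both vector libraries, which held for 19.0% of all genes tested. The 4 were picked by the test on these same libraries. PDR5 lost its call when either TIP41 library was left out (adjusted p = 0.188 and 0.0589). SNQ2, ICT1 and YMR102C lost their calls without either ρ+ vector library, without ρ0 vector replicate 1 and without either TIP41 library, and SNQ2 also without either ρ0 PDE2 library. The highest adjusted p of the 4 genes over the alternatives was 0.46.

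The letters TCCGCGGA stood before PDR5 and before 3 further genes that fell in 1 of the fits or in both. They are shown in capitals, on the strand of the gene, for PDR5 at chrXV:619340-619549, plus strand, YLR346C at chrXII:822895-822932, minus strand, PDR15 at chrIV:1278816-1278853, plus strand and SPO24 at chrXVI:645587-645624, plus strand, all in R64.
PDR5: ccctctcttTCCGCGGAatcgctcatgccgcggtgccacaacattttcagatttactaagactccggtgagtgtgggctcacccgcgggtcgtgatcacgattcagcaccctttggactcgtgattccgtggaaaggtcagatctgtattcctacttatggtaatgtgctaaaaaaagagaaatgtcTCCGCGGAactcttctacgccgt
YLR346C: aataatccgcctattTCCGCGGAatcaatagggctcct
PDR15: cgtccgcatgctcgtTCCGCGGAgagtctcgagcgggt
SPO24: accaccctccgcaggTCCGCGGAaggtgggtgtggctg

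PDR5 held 2 of these sites, 491 and 313 bases before its start. TCCGCGGA occurred in the 500 bases before 32 of 5487 genes tested (0.583%), before 7 of the 20 Pdr1p and Pdr3p targets (35%), before 3 of the 14 lower protein-coding genes (21.4%), which were ISU1, PDR5 and SPO24, and before 10 of the 64 lower with the block (15.6%). It stood before 0 of the 44 genes higher with the block. Of the 10 genes, LAC1, PDR15, PDR16, PDR3, PDR5 and YLR346C are themselves listed targets, while BDH2, ICY1, ISU1 and SPO24 are not. The share among listed targets of these regulators is thus no separate support. SNQ2, ICT1 and YMR102C had no match to these exact letters in the window.

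Of the Pdr1p and Pdr3p targets that fell only with the block, YLR346C had 13.5 and 9.36 CPM with TIP41, against 27.4 and 35.1 CPM with the vector (log2 fold change −1.40, SE 0.27, adjusted p = 0.00187 with the block and 0.0509 without it), and only 1.03 and 0 CPM in ρ+ vector cells. PDR15, a transporter related to Pdr5p, had 168 and 288 CPM with TIP41, against 345 and 791 CPM with the vector (log2 fold change −1.28, SE 0.24, adjusted p = 0.0371 with the block and 0.431 without it). PDR3, the regulator that acts on its own promoter, had 133 and 190.2 CPM, against 208 and 343 CPM (log2 fold change −0.75, SE 0.13, adjusted p = 0.000686 with the block and 0.372 without it). The phosphatidylinositol transfer protein PDR16 (−0.71, adjusted p = 0.00611), the efflux pump YOR1 (−0.62, 0.00642), the ceramide synthase LAC1 (−0.62, 0.0167) and YGR035C (−1.13, 0.00014) completed the group with the block, and without it had adjusted p-values of 0.129, 0.239, 0.354 and 0.392. Other targets of these regulators did not pass, among them PDR10 with 39.3 and 24.9 CPM with TIP41, against 37.5 and 18.6 CPM with the vector, TPO1 with 157 and 158 CPM, against 132 and 163 CPM, and GRE2 with 174 and 195 CPM, against 193 and 233 CPM. Of these, PDR10 and TPO1 had a log2 fold change above 0. With the block, the number lower was 12 when vector replicate 0 was left out, 5 when vector replicate 1 was, and 1 and 2 when TIP41 replicates 0 and 1 were. The adjusted p of the 7 genes called only with the block ran from 1.84e-16 to 0.923 over the alternatives.

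**Figure D4:**
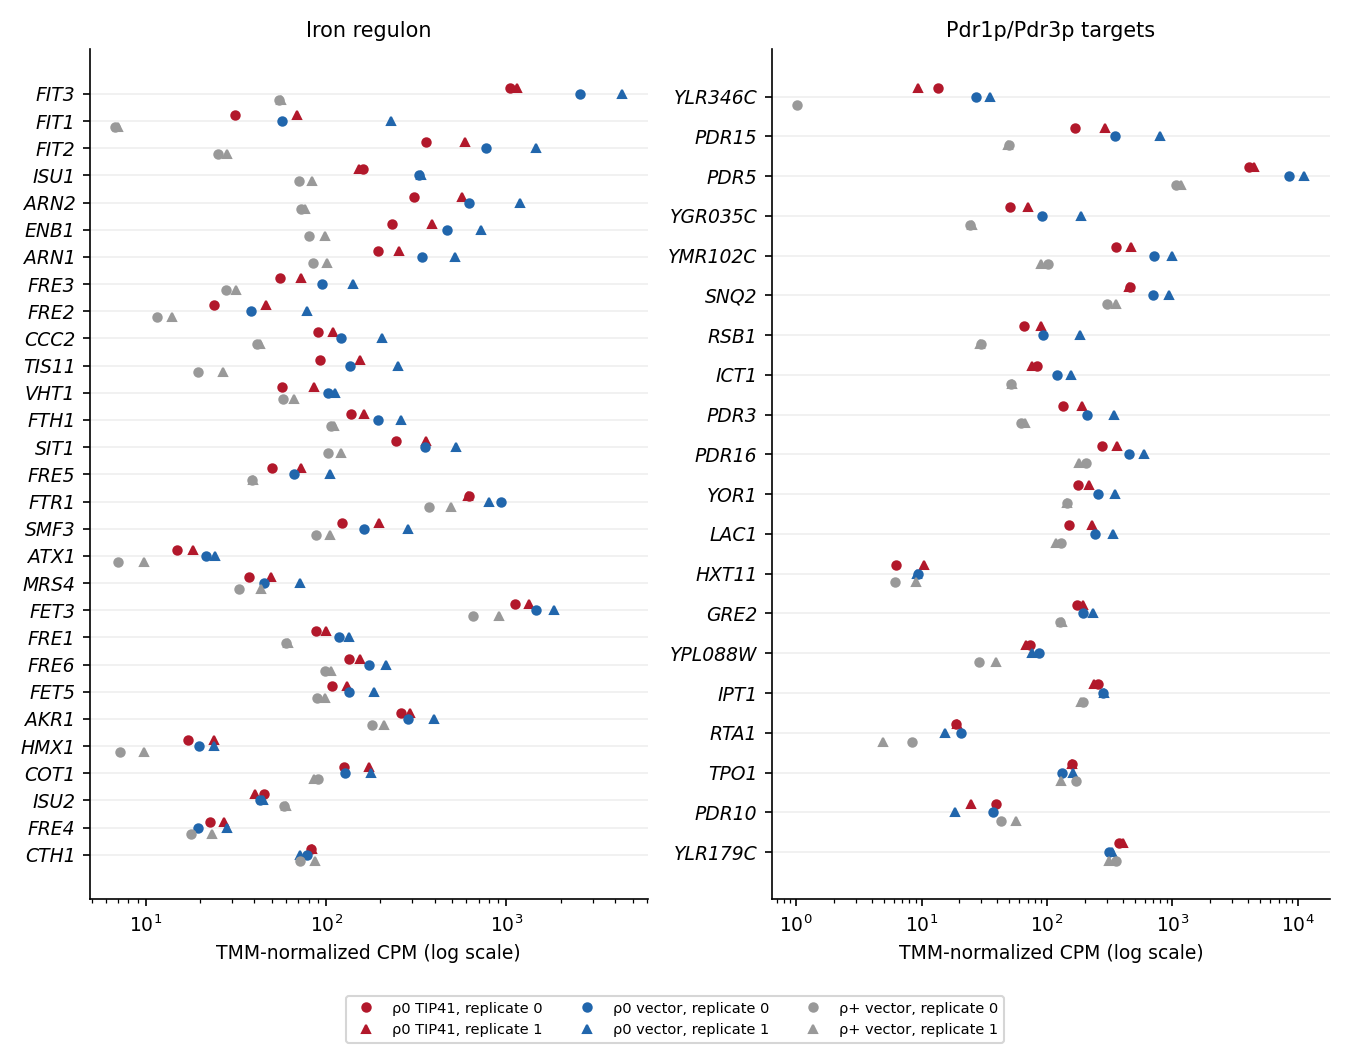
Levels in CPM (x axes, log scale) of the iron regulon (left, 29 genes) and of Pdr1p and Pdr3p targets (right, 20 genes) in ρ0 TIP41 (red), ρ0 vector (blue) and ρ+ vector (grey) libraries, with circles for replicate 0 and triangles for replicate 1. Genes are sorted by log2 fold change, with the lowest at the top. Both TIP41 libraries lie below both vector libraries for 16 iron genes and 14 Pdr1p and Pdr3p targets, against 19.0% of all genes tested.

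The retrograde targets include the enzymes that make 2-oxoglutarate from acetyl-CoA and oxaloacetate. Of the 7 tested, 1 fell without the block and 3 with it, against 0.274% and 1.13% of all genes tested. IDH1 (YNL037C, chrXIV:557920-559002), a subunit of the mitochondrial isocitrate dehydrogenase, had 695 and 559 CPM with TIP41, against 1389 and 1135 CPM with the vector (log2 fold change −1.01, SE 0.19, adjusted p = 0.0275) and 99.9 and 109 CPM in ρ+ vector cells. Its partner IDH2 had 912 and 878 CPM with TIP41, against 1664 and 1545 CPM with the vector (log2 fold change −0.84, SE 0.16, adjusted p = 0.00105 with the block and 0.0546 without it). IRC14 had 64 and 77.4 CPM, against 123 and 149 CPM (log2 fold change −0.95, SE 0.15, adjusted p = 0.0102), but it shares the deposited locus chrXV:580159-581359 with IDH2, so the reads of the 2 genes cannot be told apart. IRC14 did not pass without ρ0 vector replicate 1 or ρ0 TIP41 replicate 0, and its adjusted p reached 0.232 over the alternatives. CIT2, the peroxisomal citrate synthase and classic retrograde target, had 328 and 295 CPM with TIP41, against 712 and 416 CPM with the vector (log2 fold change −0.80, SE 0.16, adjusted p = 0.00454 with the block and 0.613 without it). Aconitase ACO1, with 1119.7 and 844 CPM with TIP41 against 1859.8 and 1085 CPM with the vector, and DLD3, with 350.4 and 363 CPM against 583 and 425 CPM, did not pass. CIT1, the mitochondrial citrate synthase, had 303 and 301 CPM, against 344 and 257 CPM, and overlapped between the groups. The median of the list was −0.58, and −0.25 and −0.89 without ρ0 vector replicates 0 and 1. IDH1 did not pass without either ρ+ vector library (adjusted p = 0.103 and 0.107) or without either ρ0 TIP41 library (0.188 and 0.313). With the block, 0 and 1 retrograde genes passed when TIP41 replicates 0 and 1 were left out, and the adjusted p of CIT2 and IDH2 ran from 9.19e-07 to 0.954 over the alternatives.

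Among the enzymes that follow 2-oxoglutarate in the TCA cycle, LSC2 and SDH2 rose with the block. LSC2, a subunit of succinyl-CoA ligase, had 80.2 and 62.4 CPM with TIP41, against 46.5 and 41.2 CPM with the vector (log2 fold change 0.70, SE 0.16, adjusted p = 0.00909 with the block and 0.212 without it). SDH2, the iron-sulfur subunit of succinate dehydrogenase, had 61 and 48.9 CPM, against 35.3 and 22.6 CPM (log2 fold change 0.92, SE 0.18, adjusted p = 0.00154 with the block and 0.131 without it). The other subunits of succinate dehydrogenase did not pass. For each of them both TIP41 libraries lay above both vector libraries, which held for 22.9% of all genes tested. SDH1 had 58.1 and 36.9 CPM with TIP41, against 28.1 and 27 CPM with the vector. SDH3 had 82.1 and 62.4 CPM, against 60.1 and 45.2 CPM, and SDH4 had 45.5 and 42.6 CPM, against 31 and 27.4 CPM. Over all 23 TCA and glyoxylate enzymes tested, 2 rose and 2 fell with the block and the median log2 fold change was 0.13. The adjusted p of LSC2, SDH2 and IDH2 ran from 1.5e-05 to 0.556 over the alternatives.

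Nuclear genes for subunits of complex III and cytochrome oxidase in the respiratory chain were higher in ρ0 TIP41 cells. Of 9 subunits of complex III tested, COR1 rose without the block and COR1, QCR2 and QCR7 rose with it. Over all genes tested 0.137% rose without the block and 0.823% with it. In edgeR's test 0 fell in either fit, 7 were higher at an unadjusted p under 0.05 and 0 lower, and DESeq2 called 1 higher and 0 lower. All 9 had a positive log2 fold change, with a median of 0.67, and in 8 the TIP41 libraries lay above the vector libraries (22.9% of all genes tested). COR1 (YBL045C, chrII:134143-135516), a core protein of the complex, had 167 and 134 CPM with TIP41, against 86.8 and 76.7 CPM with the vector (log2 fold change 0.88, SE 0.17, adjusted p = 0.034), and 224 and 211 CPM in ρ+ vector cells. QCR2, the second core protein, had 134 and 109.7 CPM, against 81 and 68.6 CPM (log2 fold change 0.70, SE 0.14, adjusted p = 0.00166 with the block and 0.107 without it), and QCR7 had 59.4 and 55.1 CPM, against 37.1 and 34.3 CPM (log2 fold change 0.68, SE 0.16, adjusted p = 0.0167 with the block and 0.0895 without it). Of 9 nuclear subunits of cytochrome oxidase, COX13 rose without the block and COX6 with it, while DESeq2 called 0 of them. The median of these subunits was 0.58. It became 0.94 when ρ0 vector replicate 0 was dropped, but 0.44 when ρ0 vector replicate 1 was dropped. Dropping TIP41 replicate 0 gave a median of 0.47, whereas dropping TIP41 replicate 1 gave 0.65. COX13 (YGL191W, chrVII:144808-145197) had 63 and 60.3 CPM with TIP41, against 36 and 31.9 CPM with the vector (log2 fold change 0.86, SE 0.16, adjusted p = 0.0275), and COX6 had 57.1 and 45.7 CPM, against 34.6 and 29.9 CPM (log2 fold change 0.68, SE 0.17, adjusted p = 0.0259 with the block and 0.151 without it). CYC1, the gene of iso-1-cytochrome c, had 37.9 and 27 CPM with TIP41, against 22.3 and 8.88 CPM with the vector (log2 fold change 1.06, SE 0.24, adjusted p = 0.0109 with the block and 0.343 without it), while HAP4, the activating subunit of the factor that drives these genes, overlapped between the groups at 363 and 357 CPM with TIP41 and 508 and 294 CPM with the vector. CYC1 and SDH2 belong to a list of succinate dehydrogenase, NADH dehydrogenases, cytochrome c and HAP factors, with 16 genes tested. No other member passed in either fit. Of the 16, 9 had a positive and 7 a negative log2 fold change, with a median of 0.10. Both TIP41 libraries lay above both vector libraries for 7 of them and below for 3. The ρ+ vector libraries stood above both TIP41 libraries for COR1, QCR2, QCR7, COX6 and CYC1, while COX13 overlapped with them at 68.1 and 55.4 CPM. COR1 and COX13 each lost the call without either ρ+ vector library, without ρ0 vector replicate 1 and without ρ0 TIP41 replicate 0, at adjusted p of 0.0522 to 0.347, and COX13 also without ρ0 TIP41 replicate 1 (0.137). The largest adjusted p over the alternatives was 0.46 for COR1, 0.292 for COX13, and 0.65 or less for QCR2, QCR7 and COX6.

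Of 17 tested genes for ATP synthase subunits and inhibitors, 0 passed without the block (9 at an unadjusted p under 0.05, 0 by DESeq2) and ATP5 rose with it. All 17 had a positive log2 fold change, with a median of 0.43, and in 14 both TIP41 libraries stood above both vector libraries, against 22.9% of all genes tested. ATP5 had 112 and 105 CPM with TIP41, against 80.7 and 74.2 CPM with the vector (log2 fold change 0.48, SE 0.13, adjusted p = 0.0457 with the block and 0.136 without it). Short genes were higher in the TIP41 libraries in general, and the part of gene length in these values was not tested beyond the trend that follows. Over 5487 protein-coding genes the median log2 fold change was 0.12 in the shortest of 5 bins (78 to 672 bases) and 0.04, 0.02, −0.01 and −0.08 in the others up to the longest (2148 to 14733 bases), with a Spearman correlation of −0.24 across genes, which are not independent replicates. With a smooth trend on length removed, the medians of complex III, cytochrome oxidase and ATP synthase were 0.61, 0.53 and 0.39, all 24 genes still passed, and 9 rose and 18 fell in all. With the block as well, 37 rose and 67 fell, holding 95 of the 114, and ATP5 no longer passed (adjusted p = 0.106). Of the other genes named as passing with the block, PDR15 (0.0979), ARG5,6 (0.061), SIT1 (0.0549), COX6 (0.0588), TRX1 (0.0564), RPS21B (0.0618), EMI2 (0.0529) and YML131W (0.0561) did not pass in that fit either. The adjusted p of ATP5 ran from 0.00714 to 0.663 over the alternatives.

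Genes of oxidant defence were partly higher. SOD2 (YHR008C, chrVIII:122889-123590), the manganese superoxide dismutase of the mitochondrial matrix, had 174 and 157 CPM with TIP41, against 109 and 85.9 CPM with the vector (log2 fold change 0.77, SE 0.14, adjusted p = 0.0275), and 207 and 215 CPM in ρ+ vector cells. With the block CCP1, the cytochrome c peroxidase, and TRX1, a thioredoxin, rose too, with 186 and 161 CPM for CCP1 with TIP41, against 119 and 103 CPM with the vector (log2 fold change 0.65, SE 0.14, adjusted p = 0.0055 with the block and 0.107 without it), and 125 and 135 CPM for TRX1, against 86.1 and 92.8 CPM (log2 fold change 0.54, SE 0.13, adjusted p = 0.0201 with the block and 0.124 without it). These were 3 of 23 genes tested, with a median of 0.25. YNL134C (YNL134C, chrXIV:372451-373581), a gene with a putative dehydrogenase product, had 496 and 381 CPM with TIP41, against 227 and 183 CPM with the vector (log2 fold change 1.1, SE 0.21, adjusted p = 0.0439), and 675 and 658 CPM in ρ+ vector cells. For both SOD2 and YNL134C the vector cultures were the lowest and the ρ+ cultures the highest of the groups named. SOD2 and YNL134C did not pass without either ρ+ vector library, ρ0 vector replicate 1 or either ρ0 TIP41 library (adjusted p of 0.0558 to 0.321), and the highest adjusted p over the alternatives was 0.458 for SOD2 and 0.724 for CCP1 and TRX1.

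The remaining genes that fell without the block had varied roles. VHR1 (YIL056W, chrIX:249991-251913), the activator of biotin uptake and synthesis genes, had 170.2 and 161 CPM with TIP41, against 317 and 329 CPM with the vector (log2 fold change −0.96, SE 0.12, adjusted p = 0.00179). Its targets BIO5, the transporter of a biotin precursor, and VHT1, the biotin permease, fell with the block, BIO5 to 56.1 and 76.9 CPM with TIP41, against 118 and 194 CPM with the vector (log2 fold change −1.21, SE 0.14, adjusted p = 1.19e-06 with the block and 0.151 without it), and VHT1 to 56.7 and 85.2 CPM, against 102 and 112 CPM (log2 fold change −0.62, SE 0.15, adjusted p = 0.0143 with the block and 0.245 without it). The synthesis genes BIO3, with 17.5 and 18.7 CPM with TIP41 against 14 and 28.2 CPM with the vector, and BIO4, with 13.5 and 7.8 CPM against 12.2 and 16.5 CPM, overlapped between the groups, and BIO2, the biotin synthase with an iron-sulfur cluster, had 49.8 and 48.9 CPM against 41.8 and 27.4 CPM and did not pass. Of 12 biotin genes tested 3 fell with the block and the median was −0.24, and the adjusted p of BIO5 and VHT1 reached 0.649 and that of VHR1 0.112 over the alternatives. VHT1 is counted among the iron genes as well. PEX21 (YGR239C, chrVII:969187-970053), a receptor partner in peroxisomal import, had 53.4 and 55.6 CPM with TIP41, against 96.9 and 97.6 CPM with the vector (log2 fold change −0.84, SE 0.15, adjusted p = 0.0272), and was the only one of 27 tested peroxisome genes to pass in either fit. UPS2 (YLR168C, chrXII:499578-500270), which moves phosphatidylserine between the mitochondrial membranes, had 101 and 117 CPM, against 182 and 179 CPM (log2 fold change −0.73, SE 0.12, adjusted p = 0.0153).

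STP3 (YLR375W, chrXII:871697-872728), a zinc finger protein, had 233 and 245 CPM with TIP41, against 377 and 391 CPM with the vector (log2 fold change −0.68, SE 0.13, adjusted p = 0.0275). YLR297W (YLR297W, chrXII:724044-724433) had 33 and 46.3 CPM, against 70.2 and 98.9 CPM (log2 fold change −1.11, SE 0.22, adjusted p = 0.0465), and YDR222W (YDR222W, chrIV:910054-911301) had 69.6 and 62.9 CPM, against 113 and 114 CPM (log2 fold change −0.77, SE 0.15, adjusted p = 0.0275). The last 2 are of unknown function. All 3 lost their calls without ρ0 vector replicate 1 or either ρ0 TIP41 library, and STP3 and YLR297W also without either ρ+ vector library. PEX21 and YDR222W lost theirs without ρ0 vector replicate 1 or either TIP41 library, UPS2 without ρ+ vector replicate 0 or ρ0 TIP41 replicate 0, and YLR297W without either PDE2 library as well. VHR1 passed without each library in turn. Over the alternatives the highest adjusted p was 0.46 for PEX21 and YLR297W, 0.317 for UPS2, 0.416 for STP3 and 0.65 for YDR222W.

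The genes of arginine synthesis, which the study singled out on these samples, had low values in ρ0 TIP41 cells but wide spreads in ρ0 vector cells. All 9 tested had a negative log2 fold change, with a median of −1.14, yet 0 passed without the block (4 were lower at an unadjusted p under 0.05, and DESeq2 called 1) and 3 fell with it, ARG3 and ARG5,6 among them. ARG3, ornithine carbamoyltransferase, had 6.93 and 8.84 CPM with TIP41, against 14.8 and 33.1 CPM with the vector (log2 fold change −1.55, SE 0.34, adjusted p = 0.00918 with the block and 0.129 without it), and ARG5,6 had 52.5 and 59.8 CPM, against 78.2 and 169 CPM (log2 fold change −1.07, SE 0.23, adjusted p = 0.0456 with the block and 0.37 without it). ARG1, argininosuccinate synthase, had the lowest log2 fold change of the list at −1.86 and passed in neither fit (adjusted p = 0.573 without the block), with 46.2 and 94.6 CPM with TIP41, against 88.6 and 412 CPM with the vector. ARG4, argininosuccinate lyase, had 73.2 and 130.5 CPM, against 169 and 464 CPM (log2 fold change −1.65). In ARG1, ARG3, ARG4, ARG5,6 and ARG7 the vector replicate 1 stood far above vector replicate 0. Without vector replicate 1 the median of the list was −0.37 and without vector replicate 0 it was −1.63, with 0 and 5 genes lower in the fit without the block, and 2 and 6 in the fit with it. Without either TIP41 library 0 passed with the block, and over the alternatives the adjusted p of ARG3 and ARG5,6 ran from 1.63e-12 to 0.79. CAR1, the arginase that breaks arginine down, rose with the block to 93.4 and 79 CPM with TIP41, against 57.6 and 41.2 CPM with the vector (log2 fold change 0.81, SE 0.18, adjusted p = 0.0185 with the block and 0.129 without it).

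ARO9 and ARO10, an aminotransferase and a decarboxylase of aromatic amino acid breakdown that the study also singled out, had the opposite pattern. ARO9 had 101 and 28.6 CPM with TIP41, against 12.2 and 6.05 CPM with the vector (log2 fold change 2.85, SE 0.93, adjusted p = 0.429), and ARO10 had 123 and 41.6 CPM, against 21.6 and 19.4 CPM (2.05, SE 0.75, adjusted p = 0.467). Both were much higher in TIP41 replicate 0 than in TIP41 replicate 1, and neither passed with the block (adjusted p = 0.381 and 0.477). Their regulator ARO80 had 41.2 and 46.8 CPM with TIP41, against 43.2 and 46.8 CPM with the vector. HXK1, a hexokinase, was the third gene with a large positive log2 fold change that did not pass (2.16, adjusted p = 0.614), at 87.1 and 49.4 CPM with TIP41, against 19.4 and 11.3 CPM with the vector. TIR1, a cell wall mannoprotein of cold and anaerobic growth, had 20.5 and 43.1 CPM, against 23.8 and 178 CPM (−1.71, adjusted p = 0.66). The low value of TIR1 depended on ρ0 vector replicate 1, without which its log2 fold change was 0.36, and it passed when ρ0 vector replicate 0 was left out (−2.55, adjusted p = 0.0121).

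The block brought in further genes with roles in storage carbohydrate, lipid and one-carbon metabolism. GSY1, a glycogen synthase, had 26.4 and 49.4 CPM with TIP41, against 9.36 and 19 CPM with the vector (log2 fold change 1.40, SE 0.25, adjusted p = 0.000704 with the block and 0.212 without it). PGM2, the phosphoglucomutase that feeds glycogen and trehalose synthesis, had 72.6 and 82.6 CPM, against 40.0 and 50.8 CPM (log2 fold change 0.77, SE 0.19, adjusted p = 0.0352 with the block and 0.181 without it), and EMI2, a hexokinase-related protein, had 110.2 and 128 CPM, against 67.3 and 73.4 CPM (log2 fold change 0.75, SE 0.18, adjusted p = 0.0378 with the block and 0.154 without it). GSY1 and PGM2 belong to 25 tested stress genes of Msn2p and Msn4p, of which YGP1, a cell wall glycoprotein, fell with the block (−0.74, adjusted p = 0.0163 with the block and 0.318 without it). The list had a median of 0.46 and 23 positive values, and 0 of its members passed without the block (9 at an unadjusted p under 0.05, 0 by DESeq2). With the block 0.823% of all genes tested rose and 1.13% fell. MSN4 itself had 70.3 and 71.2 CPM with TIP41, against 48.3 and 43.6 CPM with the vector (log2 fold change 0.62, SE 0.16, adjusted p = 0.0367 with the block and 0.257 without it), and MSN2 had 119 and 114 CPM, against 98.7 and 132 CPM, and did not pass. The adjusted p of GSY1, PGM2 and YGP1 ran from 3.98e-08 to 0.834 over the alternatives, and that of MSN4 from 0.0028 to 0.871.

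SAM2, an S-adenosylmethionine synthetase, rose with the block to 498 and 701 CPM with TIP41, against 289 and 398 CPM with the vector (log2 fold change 0.80, SE 0.17, adjusted p = 0.00981 with the block and 0.129 without it). OPI3, which uses S-adenosylmethionine to make phosphatidylcholine, had 479.7 and 710.0 CPM, against 291 and 412 CPM (log2 fold change 0.76, SE 0.17, adjusted p = 0.0143 with the block and 0.208 without it). FAT3 (0.81, adjusted p = 0.0457), YNK1, a nucleoside diphosphate kinase (0.77, 0.0112), PFK26, a phosphofructokinase that makes fructose-2,6-bisphosphate (0.70, 0.0325), YLR108C (0.90, 0.00454) and YML131W (0.83, 0.0432) also rose with the block, and without it their adjusted p-values were 0.16, 0.129, 0.242, 0.151 and 0.218. In ergosterol synthesis ERG20 and ERG5 rose with the block (0.57 and 0.68, adjusted p = 0.0278 and 0.00385, against 0.129 and 0.0675 without it), 2 of 23 genes tested with a median of 0.28. The G1 cyclin CLN3, whose level sets entry into the cell cycle, had 166 and 126 CPM with TIP41, against 124 and 83.5 CPM with the vector (log2 fold change 0.50, SE 0.13, adjusted p = 0.0371 with the block and 0.404 without it), 1 of 24 G1 genes. A few low-count genes also passed with the block and are named here after their values were seen. YJL026C-A had 1.65 and 15.6 CPM with TIP41, against 0.36 and 1.61 CPM with the vector, YLR157C-B, a Ty element gene, had 13.9 and 0.52 CPM, against 0 and 0.403 CPM, and YGR259C had 0 and 8.84 CPM, against 0 and 0 CPM. For each of these genes 1 TIP41 library was far above the other.

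Among other genes that fell only with the block, ANB1, the hypoxic form of translation factor eIF5A, had 9.9 and 14 CPM with TIP41, against 21.2 and 45.2 CPM with the vector (log2 fold change −1.41, SE 0.26, adjusted p = 0.000957 with the block and 0.181 without it), and ICY2 had 15.2 and 30.1 CPM, against 35.3 and 91.6 CPM (log2 fold change −1.45, SE 0.26, adjusted p = 0.00695 with the block and 0.429 without it). GTO3, a glutathione transferase, had 16.5 and 27.5 CPM, against 34.9 and 67.4 CPM (log2 fold change −1.20, SE 0.20, adjusted p = 0.000415 with the block and 0.296 without it), and TMT1, a methyltransferase of aconitate and isopropylmalate, had 26.4 and 38.5 CPM, against 45 and 105 CPM (log2 fold change −1.16, SE 0.23, adjusted p = 0.0163 with the block and 0.393 without it). These 4 genes were higher in vector replicate 1 than in vector replicate 0. ECM13 was not, with 36.3 and 23.9 CPM with TIP41, against 89.7 and 56.1 CPM with the vector (log2 fold change −1.28, SE 0.18, adjusted p = 1.53e-05 with the block and 0.304 without it), higher in replicate 0 of both groups. YPL264C, a membrane protein, had 4.95 and 5.2 CPM, against 13.3 and 14.9 CPM (log2 fold change −1.46, SE 0.35, adjusted p = 0.0187 with the block and 0.107 without it). Over the alternatives the adjusted p of the 90 genes called only with the block reached 1.

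In the pathway in which Tip41p acts, 0 of 17 tested genes of the TORC1 complex and its regulators and 0 of 20 of the Tap42p phosphatase branch passed in either fit of edgeR, with medians of −0.06 and 0.01. At an unadjusted p under 0.05 there were 2 and 0 such genes, and DESeq2 called 0. TAP42, which encodes the partner of Tip41p, had 52.1 and 48.9 CPM with TIP41, against 52.6 and 56.9 CPM with the vector (log2 fold change −0.11, SE 0.16). The phosphatase gene SIT4 had 184 and 161 CPM, against 201 and 183 CPM, and PPH21, a PP2A catalytic subunit, had 145 and 142 CPM, against 129 and 123 CPM. TOR1, a kinase of TORC1, had 67.6 and 82.1 CPM, against 87.2 and 112 CPM (log2 fold change −0.42, SE 0.17, adjusted p = 0.413). Of 16 effectors of this branch only MSN4 passed, with the block. GLN3, the nitrogen regulator released by Tap42p-bound phosphatases, had 43.5 and 36.9 CPM with TIP41, against 42.9 and 54.9 CPM with the vector, and RTG2, which relays the retrograde signal, had 134 and 145 CPM, against 119.9 and 120.2 CPM.

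The targets of nitrogen catabolite repression, which Gln3p and Gat1p activate, had 0 of 24 genes past the threshold in either fit (5 at an unadjusted p under 0.05, 0 by DESeq2) and a median of −0.20. The ammonium permease MEP1 had 47.2 and 50.4 CPM with TIP41, against 70.2 and 65.8 CPM with the vector, and MEP3 had 49.8 and 52 CPM, against 70.6 and 70.2 CPM. Both were below the vector libraries, as were 19.0% of all genes tested. The general amino acid permease GAP1 overlapped with 28 and 49.4 CPM against 36 and 48.4 CPM. Cytosolic ribosomal protein genes, which TORC1 promotes, had a median of 0.30 over 136 tested, and in 92 both TIP41 libraries stood above both vector libraries (22.9% of all genes tested), but 0 passed without the block (33 at an unadjusted p under 0.05, 0 by DESeq2) and only RPS21B with it (0.62, adjusted p = 0.032, against 0.394 without it). Their median was 0.51 without ρ0 vector replicate 0, where 18 passed, and 0.10 without ρ0 vector replicate 1, where 0 did. With the length trend removed the median was 0.23. Ribosome biogenesis (70 genes, median 0.05), mitochondrial ribosomal proteins (75 genes, −0.08), mitochondrial protein import (33 genes, 0.03), mitochondrial metabolite carriers (28 genes, −0.12), proteasome subunits (34 genes, 0.15), autophagy genes (19 genes, 0.01), copper and zinc uptake (13 genes, −0.15) and the Ras, cAMP and PKA components (16 genes, −0.02) had 0 genes past the threshold in either fit of edgeR and 0 by DESeq2. At an unadjusted p under 0.05 they had, in the same order, 0, 1, 0, 5, 3, 1, 1 and 2 genes. With 2 libraries a group, a p above the threshold does not show that a gene was unchanged.

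**Figure D5:**
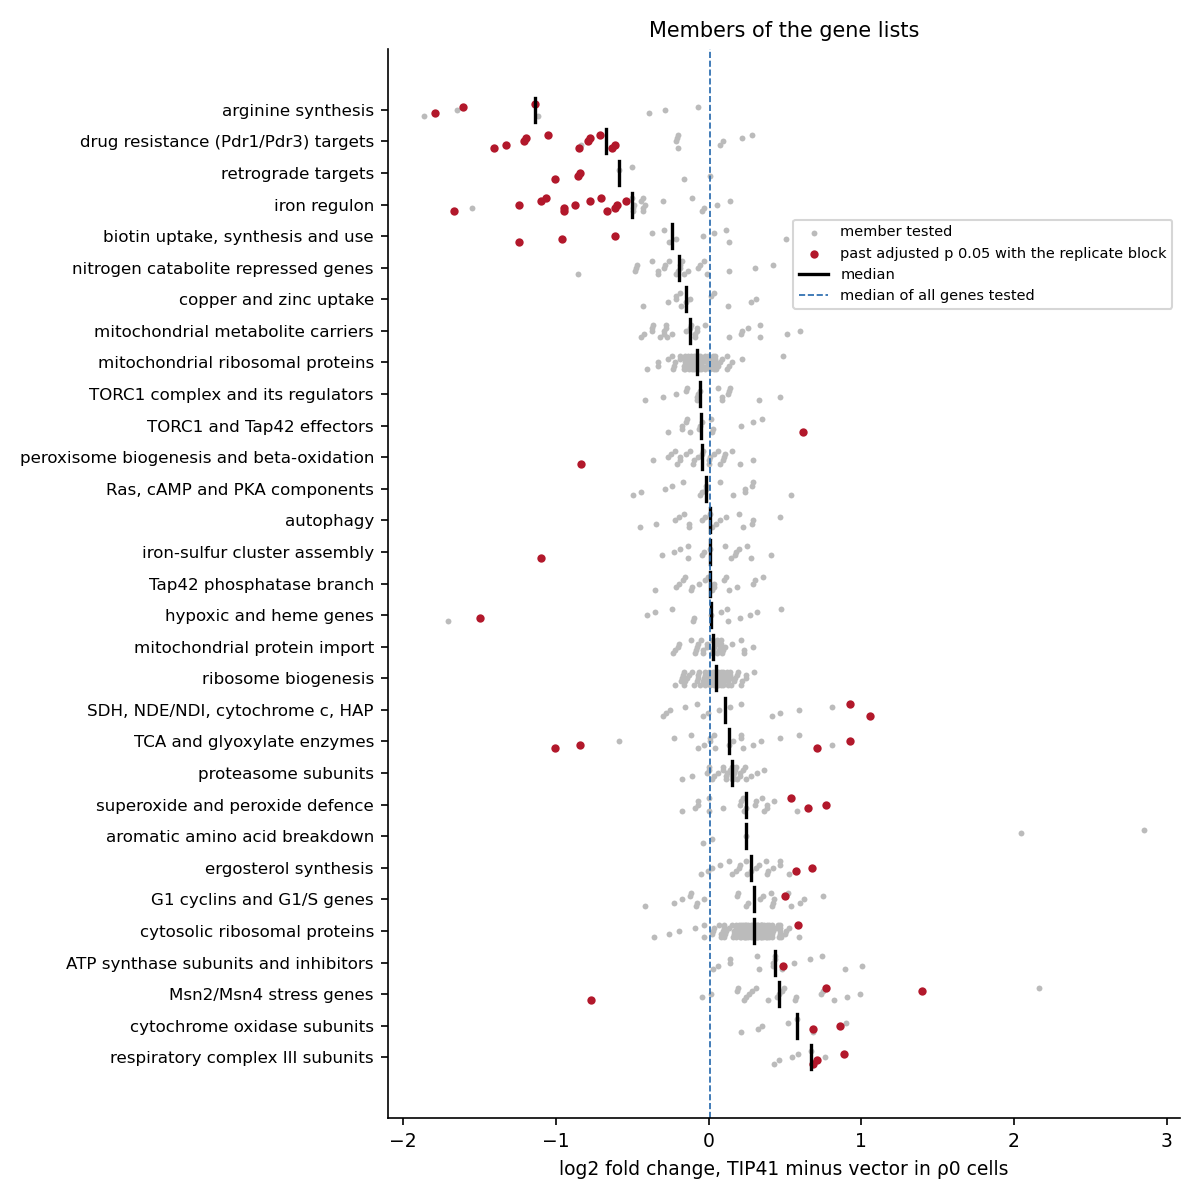
log2 fold change of TIP41 over vector in ρ0 cells (x axis) for the members of each gene list (1 row a list, sorted by median with the lowest at the top). Grey points are members tested, red points passed with the replicate block, black bars are the medians of the lists and the dashed line is the median of all genes, 0.01. The arginine, Pdr1p and Pdr3p, retrograde and iron lists lie lowest at −1.14, −0.67, −0.58 and −0.50, and complex III lies highest at 0.67.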

How the data were processed

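RNA was measured in 8 cultures of BY4743, 2 in each of 4 groups taken from the labels. Per the study's methods, poly(A) RNA was sequenced as paired ends on a MiSeq, and the authors aligned reads with TopHat2 2.0.14 to R64 with fragments estimated by Cuffdiff 2.2.1.1 under geometric scaling of libraries, dispersions set per condition, multi-read correction and bias correction. The submitters' processing notes name the same tools and build. The deposited estimated counts are fragments that Cuffdiff assigned to each gene in each library, unscaled, and 12.3% of those above 0 were not whole (tolerance 0.001). The FPKM values were deposited per gene and library after the authors' geometric scaling. The deposited count of fragments per library and the ratio by which Cuffdiff scaled each library were read from the authors' table of libraries and served only as a check. Files with the authors' own fold changes, p-values and q values for pairs of conditions were not used. Of 7105 genes, 6008 were matched to the RefSeq annotation of R64 by locus tag, 162 by symbol and 935 not, 5198 of 5222 protein-coding genes alone at their locus had the same start and end, and 1420 genes share a deposited locus. Kit reads carry strand, but no strand setting is named for counting.

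After rounding, the estimated counts were tested with edgeR 4.0.16 under R 4.3.3, using filterByExpr (5832 genes kept), TMM, a fit of 4 groups over 8 libraries with robust quasi-likelihood dispersions, and Benjamini-Hochberg adjustment at 0.05. The SE of a fold change was taken as its size over the root of its F statistic. Every group has a replicate 0 and a replicate 1, made by different experimenters. In all 6 pairs of groups, libraries with the same number deviated together from their groups' means (correlations of 0.24 to 0.58 over 5490 genes), so the numbers were taken to pair the libraries. A fit that adds the replicate number as a block stands beside results whose call it changes. Where a library was left out, the lone library of its group was assumed to vary like the other groups. Alternatives were RLE size factors, DESeq2 1.42.0, limma 3.58.1 on log2(FPKM + 1) and log2(FPKM + 0.1), no filter, a filter of 50 fragments, the 4 compared libraries alone, protein-coding genes alone, a length trend removed, and each library left out. A fold change on the log2(FPKM + pseudocount) scale understates the change of low genes.

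Named genes were TIP41 and URA3, every gene past the threshold, every tested gene within 10 kb of TIP41, the 15 largest rises and falls that passed only with the block, having groups that did not overlap and log2 CPM averaging 3 or more, list members that passed or have a central role, and the 3 most extreme genes a direction that did not pass. The genes, lists, tests and rules were chosen with earlier results of these data known. Motifs were searched on both strands in the 500 bases before coding starts. A gene that the rule names is not reported here.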

Additional observations from a re-analysis of the deposited data

How the results depend on the processing

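The counts of 8 higher and 16 lower genes were 48 and 66 with the replicate block, 3 and 3 in a fit of only the 4 compared libraries, 164 and 212 in that fit with the block, and 37 and 67 with the block and the length trend removed. DESeq2 called 26 lower, and both limma tests called TIP41 and IRC16 only, 2 higher and 0 lower. RLE size factors, no filter, a filter of 50 fragments, protein-coding genes alone and the length trend alone gave 7 to 9 higher and 17 or 18 lower. Leaving out 1 library without the block gave 3 to 44 higher and 2 to 72 lower. With the block these counts were 75 and 103 without ρ+ vector replicate 0, 91 and 99 without ρ+ vector replicate 1, 98 and 117 without PDE2 replicate 0 and 110 and 111 without PDE2 replicate 1. In fits chosen after seeing the data they were 61 and 95 without ρ0 vector replicate 0, 26 and 34 without ρ0 vector replicate 1, 8 and 8 without TIP41 replicate 0 and 6 and 14 without TIP41 replicate 1. All 24 genes passed with the block, and the cause of the moved counts was not tested.

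Directions turned in ARP7, GLN1, TIF5, HTS1, MCM16 and MSF1, which passed under no setting, and in TIR1, which passed under 2 (without ρ0 vector replicate 0, with and without the block). Leaving out 1 library at a time without the block gave log2 fold changes of −0.227 to 0.211 for ARP7, −0.886 to 0.162 for GLN1, −0.0643 to 0.331 for TIF5, −0.0131 to 0.0644 for MCM16, −0.0403 to 0.446 for MSF1 and −2.55 to 0.36 for TIR1. With the block, ARP7 had 0.112 without ρ0 vector replicate 0 and 0.0371 without TIP41 replicate 1, HTS1 −0.0343 without TIP41 replicate 1, TIF5 −0.0545 without ρ0 vector replicate 1, MCM16 −0.0368 without ρ0 vector replicate 0, MSF1 −0.0702 without TIP41 replicate 0 and TIR1 0.0611 without ρ0 vector replicate 1. MCM16 had −0.03 with the length trend removed and −0.0304 with the block as well.

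The compared libraries held 1945961 to 3000914 fragments, which with 2 libraries a group limits the precision of low genes most.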
